A study of Mus musculus with 11 samples.

Results

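The circadian clock genes described here are the 10 genes Arntl, Clock, Per1, Per2, Cry1, Cry2, Nr1d1, Nr1d2, Dbp and Tef, chosen by name from the gene symbols of the array files, with earlier results of these data known. The arrays carried 21 probes for them, out of 27962 gene names on the array, and all 10 were among the 16704 genes that could be tested. RNA of mouse livers from 4 stages was hybridised on 3 arrays for E14.5, 3 for E18.5, 2 for P5 (its replicates 2 and 3) and 3 for P56. Sample titles and methods give the embryonic stages as whole days, and the study's results text names them E14.5 and E18.5. No treatment, transgene or mutation is given for these animals. The methods name C57BL/6 for the embryos whose liver cells were isolated through E-cadherin and cultured, but give no strain for the postnatal livers, and no hour of the day is given for any liver, so the part of the hour in any difference was not tested. The labels call the RNA liver. Yet they list the embryonic cells as hepatoblasts (E14.5) and immature hepatocytes (E18.5), and those of P5 and P56 as hepatocytes. The methods name RNA of whole livers of each stage and also of cells isolated from embryonic livers. From these words whole liver and isolated cells cannot be told apart for the embryonic arrays.

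Every array compared liver RNA in the Cy5 channel with 1 common reference in the Cy3 channel, commercial RNA of normal adult mouse liver. A value is therefore log2(Cy5/Cy3): 0 means the same signal as the adult reference, and a step of 1 is a doubling. Dyes were not swapped, so a dye bias of a probe stands in every ratio to the reference but cancels in a difference between stages. Ratios of different genes were not set against each other as levels. Replicates are named as biological replicates in the labels. Spots well above background in Cy5 numbered 22027 to 25718 on the arrays of E14.5, E18.5 and P5 and 16790 to 23079 at P56, of 43379 spots that are not controls, and P56 replicate 2 had the fewest. With so few arrays the precision is limited.

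The mammalian clock is a transcriptional loop with a period of about a day. The proteins of Arntl (also called Bmal1) and Clock pair and bind E-box letters in the DNA of their targets, which include the Per and Cry genes. The Per and Cry proteins then gather and hold the pair in check. The nuclear receptors encoded by Nr1d1 and Nr1d2 (Rev-erb alpha and beta) are also switched on by the pair and in turn repress Arntl through ROR response elements, while Dbp and Tef are PAR bZIP factors that carry the rhythm on to D-box genes of liver metabolism. In adult liver many of these transcripts rise and fall strongly over the day.

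In these arrays the clock genes did not move as 1 block across development. Nr1d2, Dbp, Tef and Nr1d1 were low in the embryo and rose towards P56, by 3.37, 1.75, 1.43 and 1.20 on the log2 scale between E18.5 and P56. The size of the Nr1d1 rise depended on probe and scaling. Its dimmer probes gave 0.11 and 0.49, and its brightest gave 0.36 with arrays shifted to a common median (limma, adjusted p = 0.12). For the brightest probe 26 of 27 settings called the rise, counting fits with an array left out. Arntl went the other way after birth, with its highest ratio at E18.5 and a fall of 1.62 from there to P56. Per1 rose by 1.34 from E14.5 to E18.5 and lay lower again at P5 and P56. Clock rose by 0.43 between the embryonic stages by its brightest probe, a rise that its dimmer probes did not show.

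**Figure D1:**
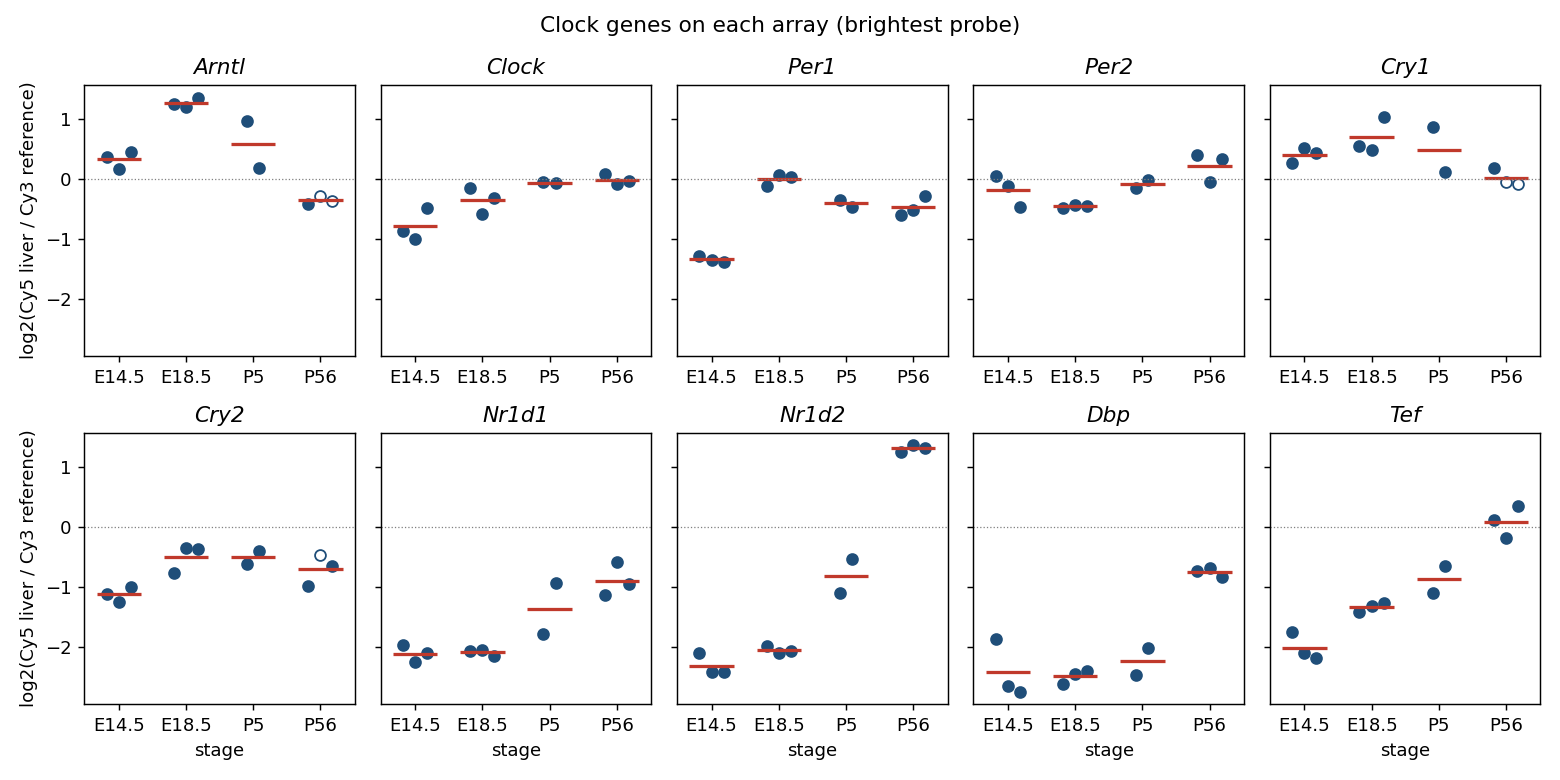
Log2(Cy5 liver/Cy3 reference) of each clock gene on each of the 11 arrays, by stage, for the brightest probe of each gene. Points are arrays, filled where the probe was well above background in Cy5 and open where it was not, and the red line is the stage mean; Nr1d2 climbs from between -2.43 and -1.98 in the embryo to between 1.25 and 1.37 at P56, while Arntl peaks at E18.5.

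Promoters are shown because the loop acts through letters in them. For 9 of the 10 genes the RefSeq tables on GRCm38.p6 gave 14 starts, and the 250 bases before each start were searched on both strands for 4 motifs. Per2 was not among them. The E-box CACGTG stood before Cry1, Per1 and Tef (4 of the 14 windows), and 6.02% of all 32851 promoters hold it. The variant E'-box CACGTT stood before Cry1, Cry2 and Nr1d1, against 3.85% of all promoters. Neither spelling of the D-box (TTATGTAA or TTACGTAA, in 0.931% of all promoters) nor of the ROR element core (TAGGTCA or TGGGTCA, in 5.38%) was found in the 14 windows, which says only that these letters are not in them. The motifs do not overlap in these windows, and a match is a spelling, not a measured site. The windows below are those of Per1 (chr11:69098699-69098948, plus strand), Cry1 (chr10:85185055-85185304, minus strand), Tef (chr15:81802423-81802672, plus strand) and Nr1d1 (chr11:98775378-98775627, minus strand), written 5′ to 3′ along the gene, with capitals for an E-box or E'-box and AACGTG for a CACGTT read from the other strand.
Per1: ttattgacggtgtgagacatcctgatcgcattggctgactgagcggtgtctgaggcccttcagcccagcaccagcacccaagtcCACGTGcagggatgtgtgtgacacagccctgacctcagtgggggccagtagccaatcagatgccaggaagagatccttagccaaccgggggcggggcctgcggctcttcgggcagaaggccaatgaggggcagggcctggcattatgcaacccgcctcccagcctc
Cry1: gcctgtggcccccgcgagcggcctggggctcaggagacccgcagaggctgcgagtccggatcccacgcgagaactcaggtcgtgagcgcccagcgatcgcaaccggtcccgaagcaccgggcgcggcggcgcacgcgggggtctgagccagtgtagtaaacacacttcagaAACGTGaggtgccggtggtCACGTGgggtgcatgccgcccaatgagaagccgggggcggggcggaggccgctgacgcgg
Tef: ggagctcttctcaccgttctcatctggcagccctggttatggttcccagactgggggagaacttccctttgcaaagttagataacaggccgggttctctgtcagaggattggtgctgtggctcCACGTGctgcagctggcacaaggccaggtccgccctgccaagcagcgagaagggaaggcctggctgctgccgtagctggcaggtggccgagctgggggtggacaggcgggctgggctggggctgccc
Nr1d1: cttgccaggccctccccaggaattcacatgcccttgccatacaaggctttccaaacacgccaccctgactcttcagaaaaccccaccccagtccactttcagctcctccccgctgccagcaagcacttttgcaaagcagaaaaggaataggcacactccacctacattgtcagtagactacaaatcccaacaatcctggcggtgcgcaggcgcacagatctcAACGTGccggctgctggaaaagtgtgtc
In Per1 the E-box began 166 bases before the start and in Tef 127 bases before it. Cry1 held its E-box 60 bases and an E'-box 79 bases before the start. The E'-box of Nr1d1 lay nearest of those shown, at 28 bases.

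Arntl and Clock encode the activating pair. Arntl was read by 1 probe (chr7:109229489-109229548 on mm7, the build of the array files). Its log2 ratios were 0.37, 0.18 and 0.46 (E14.5), 1.26, 1.20 and 1.35 (E18.5), 0.97 and 0.18 (P5) and -0.41, -0.29 and -0.37 (P56). All 3 arrays of E18.5 lay above every array of the other stages, all 3 of P56 lay below every other array, and the P5 arrays spread widely between them. From E14.5 to E18.5 Arntl rose by 0.93 ± 0.16 (SE; adjusted p = 6.1e-04), fell by 0.69 ± 0.18 to P5 (adjusted p = 0.029) and by a further 0.93 ± 0.18 to P56 (adjusted p = 0.0015). From E18.5 to P56 that is a 3.08-fold fall (adjusted p = 4.7e-06). In the order E18.5, P5, E14.5, P56, only the neighbours P5 and E14.5 did not differ beyond their spread (adjusted p = 0.30). Here and below, a lower ratio can come from fewer expressing cells or from less RNA per cell, which cannot be told apart in bulk RNA.

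The raw signals show how dim the Arntl spots became. Mean Cy5 signals were 112 to 160 at E14.5 and 275 to 344 at E18.5, and 58.0, 46.9 and 52.7 at P56, where the probe was well above background on 1 of 3 arrays. The reference channel held 91.2 to 135 on all arrays. An offset of 50 was added in the background correction, which shrinks differences of such dim spots: with the scanner software's own processed signals the difference of P56 from E18.5 was -2.94.

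Clock encodes the partner of Arntl, a protein that also acetylates histones. Its brightest probe (chr5:76144675-76144734, mm7) gave -0.86, -0.99 and -0.48 (E14.5), -0.15, -0.58 and -0.32 (E18.5), -0.05 and -0.07 (P5) and 0.09, -0.09 and -0.03 (P56). The embryonic stages overlapped, since E14.5 replicate 3 lay above E18.5 replicate 2, and the P5 and P56 arrays lay together, from -0.09 to 0.09. The rise from E14.5 to E18.5 was 0.43 ± 0.14 (adjusted p = 0.026), and it was not called without E14.5 replicate 1 (0.39, adjusted p = 0.083) or replicate 2 (0.32, adjusted p = 0.11), or without E18.5 replicate 1 (0.33, adjusted p = 0.10) or replicate 3 (0.41, adjusted p = 0.074). P56 exceeded E14.5 by 0.77 ± 0.14 (adjusted p = 4.0e-04), and its difference from E18.5 was 0.34 (95% interval 0.03 to 0.65, adjusted p = 0.0504), which passed the threshold without E14.5 replicate 2 (0.34, adjusted p = 0.044) or replicate 3 (0.34, adjusted p = 0.025) or without E18.5 replicate 1 (0.44, adjusted p = 0.027).

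The 3 dimmer probes of Clock did not show the embryonic rise. Between E14.5 and E18.5 they differed by -0.015, 0.093 and -0.026, with adjusted p of 0.92, 0.52 and 0.83. One of the 3 passed the filter on dim probes, and the dimmest was well above background in Cy5 on no array. On E14.5 replicate 3, the highest of its stage, the brightest probe gave a raw Cy5 signal of 65.1 and a Cy3 signal of 107, against Cy3 signals of 239 to 429 on the other arrays.

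Per1 and Per2 encode period proteins of the repressing arm. The single Per1 probe (chr11:69190950-69191009, mm7) gave -1.29, -1.36 and -1.38 (E14.5), -0.12, 0.06 and 0.04 (E18.5), -0.35 and -0.46 (P5) and -0.60, -0.51 and -0.28 (P56). E14.5 stood below every other array, E18.5 above, and the P5 and P56 arrays overlapped. Per1 rose 2.53-fold from E14.5 to E18.5 (1.34 ± 0.10 on the log2 scale, adjusted p = 8.9e-07), and its replicates were the tightest of the 10 genes, with a residual SD that 25.8% of all genes tested undercut. P56 was lower than E18.5 by 0.46 ± 0.10 (adjusted p = 0.0020). The difference of P5 from E18.5 was -0.40 ± 0.12 (adjusted p = 0.040), and between P5 and P56 the interval of the difference ran from -0.31 to 0.19.

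Per2 was read by 2 probes of nearly equal brightness, 7.07 and 6.95 as the mean log2 signal of both channels, that did not give the same course. The slightly brighter one (chr1:91347406-91347465, mm7) gave 0.05, -0.12 and -0.46 (E14.5), -0.48, -0.44 and -0.44 (E18.5), -0.15 and -0.01 (P5) and 0.40, -0.05 and 0.33 (P56). By this probe E18.5 was the lowest stage, P56 exceeded it by 0.68 ± 0.14 (adjusted p = 0.0014), and no neighbours in the order of stages differed beyond their spread. The other probe (chr1:91323914-91323973, mm7) gave -0.60, -0.54 and -0.26 (E14.5), 0.34, 0.38 and 0.45 (E18.5), 0.10 and 0.08 (P5) and 0.06, -0.06 and -0.03 (P56). Here E18.5 was the highest stage, 0.86 ± 0.10 above E14.5 (adjusted p = 3.0e-05), and P56 lay 0.40 ± 0.10 below it (adjusted p = 0.0042). The probes opposed each other at E18.5, so no direction for Per2 between E14.5 and E18.5 or between E18.5 and P56 is given here. Both lay higher at P56 than at E14.5, by 0.40 (adjusted p = 0.026) and 0.46 (adjusted p = 0.0016). The first of these calls was lost without E14.5 replicate 3 (0.26, adjusted p = 0.12), P56 replicate 1 (0.31, adjusted p = 0.090) or P56 replicate 3 (0.35, adjusted p = 0.085), and without E14.5 replicate 3 the brighter probe's fall to E18.5 was called (-0.42, adjusted p = 0.033).

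**Figure D2:**
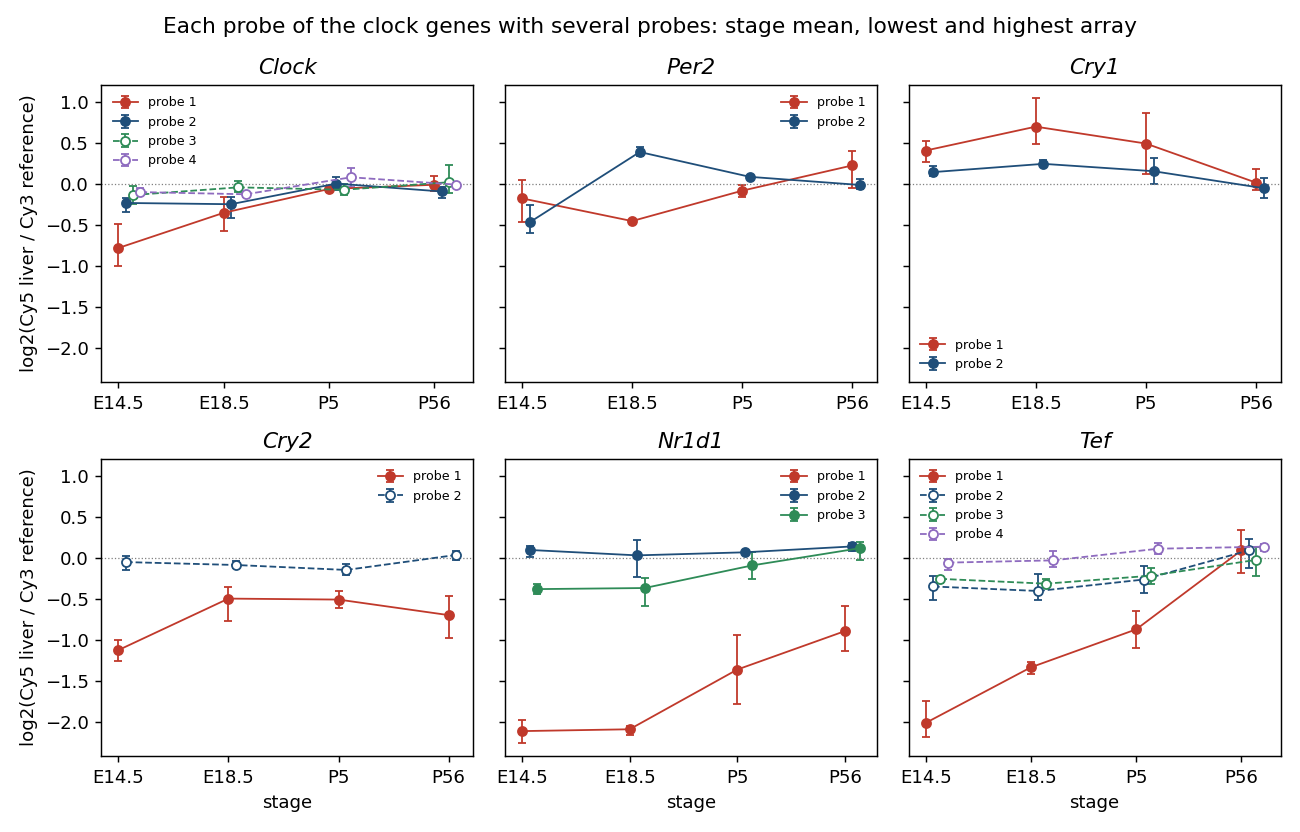
Stage means of log2(Cy5 liver/Cy3 reference) for every probe of the 6 clock genes with more than 1 probe, with bars from the lowest to the highest array. Probes are numbered by brightness, and dashed lines with open points mark probes that did not pass the filter on dim probes; the 2 Per2 probes cross at E18.5, and the dimmer probes of Nr1d1 and Tef are flatter than the brightest.

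Cry1 and Cry2 encode cryptochromes, the partners of the period proteins. The brighter Cry1 probe (chr10:84673350-84673409, mm7) gave 0.27, 0.53 and 0.43 (E14.5), 0.56, 0.49 and 1.04 (E18.5), 0.87 and 0.12 (P5) and 0.19, -0.06 and -0.08 (P56). Embryonic arrays were all above the P56 arrays, with P5 on both sides. Cry1 was lower at P56 than at E18.5 by 0.68 ± 0.19 (adjusted p = 0.0080), its dimmer probe by 0.30 ± 0.10 (adjusted p = 0.025), and no neighbouring stages differed. Against E14.5 the difference was -0.39 (adjusted p = 0.086), called without P5 replicate 2 or without P5 replicate 3 (adjusted p = 0.030 in both), which changes only the shared spread. Its spots were near background: raw Cy5 signals ran from 36.2 to 126, and the reference channel was well above background on 1 of 11 arrays.

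Cry2 (brighter probe chr2:92254922-92254981, mm7) gave -1.11, -1.26 and -1.0 (E14.5), -0.77, -0.35 and -0.36 (E18.5), -0.61 and -0.40 (P5) and -0.98, -0.46 and -0.65 (P56). All later arrays lay above the E14.5 arrays and overlapped one another. The rise to E18.5 was 0.63 ± 0.15 (adjusted p = 0.0048). It was not called by limma on the authors' gene table (0.70, adjusted p = 0.20) or with a fixed block for the scan (0.36). P56 was above E14.5 by 0.43 ± 0.15 (adjusted p = 0.024), a call that was lost in 4 of the 11 fits with 1 array left out, without E14.5 replicate 1 (0.43, adjusted p = 0.052) or replicate 2 (0.36, adjusted p = 0.089) or without P56 replicate 2 (0.31, adjusted p = 0.099) or replicate 3 (0.40, adjusted p = 0.067). That call was also lost with the Cy5 channel alone (0.09, adjusted p = 0.46) and on the authors' gene table (0.48, adjusted p = 0.32). Counting all settings and fits with an array left out, 16 of 26 called it. The second Cry2 probe was well above background in Cy5 on no array and did not pass the filter.

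Nr1d1 and Nr1d2 encode the Rev-erb receptors that repress Arntl. Nr1d2 (chr14:16018965-16019024, mm7) had the widest range of the 10 genes. Its ratios were -2.10, -2.43 and -2.41 (E14.5), -1.98, -2.10 and -2.07 (E18.5), -1.10 and -0.52 (P5) and 1.25, 1.37 and 1.33 (P56). The embryonic stages overlapped, both P5 arrays lay above them, and all 3 P56 arrays lay above P5. Nr1d2 rose by 1.24 ± 0.16 from E18.5 to P5 (adjusted p = 4.8e-04) and by 2.13 ± 0.16 from P5 to P56 (adjusted p = 1.0e-06), a 10.3-fold rise from E18.5 to P56 (3.37 ± 0.14, adjusted p = 4.8e-09). Only 75 of the 16704 genes tested, 0.449%, had a larger rise between these stages. Between E14.5 and E18.5 the difference was 0.26 (95% interval -0.05 to 0.57, adjusted p = 0.15). With the scanner's processed signals that difference was 1.08 and passed the threshold (adjusted p = 7.4e-04), and raw Cy5 signals were 54.5 to 70.6 at E14.5 and 90.3 to 109 at E18.5.

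Nr1d1 was read by 3 probes. The brightest (chr11:98878251-98878753, mm7, given as an interval of 503 bases) gave -1.97, -2.25 and -2.11 (E14.5), -2.07, -2.05 and -2.15 (E18.5), -1.79 and -0.93 (P5) and -1.14, -0.58 and -0.95 (P56). Embryonic arrays were all below the postnatal ones, and 1 of the 2 P5 arrays lay within the P56 range. The rise from E18.5 to P56 was 1.20 ± 0.20 (adjusted p = 2.1e-04), and that from E18.5 to P5 was 0.73 ± 0.22 (adjusted p = 0.047). Raw signals of this probe were dim and overlapped, with Cy5 at 72.2 to 82.9 at E18.5 and 73.3 to 96.4 at P56. Its Cy3 signals were 331 to 429 at E18.5 and 390 to 473 at P56. Of the dimmer probes, that at chr11:98881057-98881116 rose by 0.49 ± 0.12 from E18.5 to P56 (adjusted p = 0.0043) and that at chr11:98884160-98884219 differed by 0.11 ± 0.11 (adjusted p = 0.41). In RefSeq on GRCm38.p6 Nr1d1 and the neighbouring receptor gene Thra share 1075 bases, and whether a probe lies there was not tested.

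Dbp and Tef encode the PAR bZIP output factors. Dbp was read by 1 bright probe (chr7:41886169-41886228, mm7), with raw Cy5 signals from 1982 to 7282. Its ratios were -1.87, -2.65 and -2.75 (E14.5), -2.62, -2.45 and -2.41 (E18.5), -2.46 and -2.02 (P5) and -0.72, -0.68 and -0.83 (P56). The stages before P56 overlapped, and all 3 arrays of P56 lay above them. Dbp rose by 1.50 ± 0.22 from P5 to P56 (adjusted p = 2.2e-04) and by 1.75 ± 0.20, or 3.36-fold, from E18.5 (adjusted p = 1.2e-05), while earlier neighbouring stages did not differ beyond their spread. Its residual SD was larger than that of 91.4% of the genes tested. In RefSeq on GRCm38.p6 Dbp and the neighbouring gene Sphk2 share 741 bases, and whether the probe lies there was not tested.

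Tef, a close relative of Dbp (brightest probe chr15:81910893-81910952, mm7) gave -1.74, -2.11 and -2.18 (E14.5), -1.42, -1.31 and -1.27 (E18.5), -1.10 and -0.64 (P5) and 0.12, -0.18 and 0.35 (P56). No array of a stage overlapped one of an earlier stage. Tef rose by 0.68 ± 0.16 from E14.5 to E18.5 (adjusted p = 0.0048) and by 0.96 ± 0.18 from P5 to P56 (adjusted p = 0.0012), and the step between, from E18.5 to P5, was 0.46 (95% interval 0.06 to 0.86, adjusted p = 0.12). The rise to E18.5 was not called by limma on the authors' gene table (0.21, adjusted p = 0.63) or with a fixed block for the scan (0.59, adjusted p = 0.059). The 3 dimmer probes of Tef did not pass the filter. From E14.5 to E18.5 they gave -0.055, -0.059 and 0.027, with adjusted p of 0.78, 0.68 and 0.83. From E18.5 to P56 they gave 0.50, 0.29 and 0.17, with adjusted p of 0.0082, 0.028 and 0.13, against 1.43 ± 0.16 for the brightest (adjusted p = 1.2e-05).

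**Figure D3:**
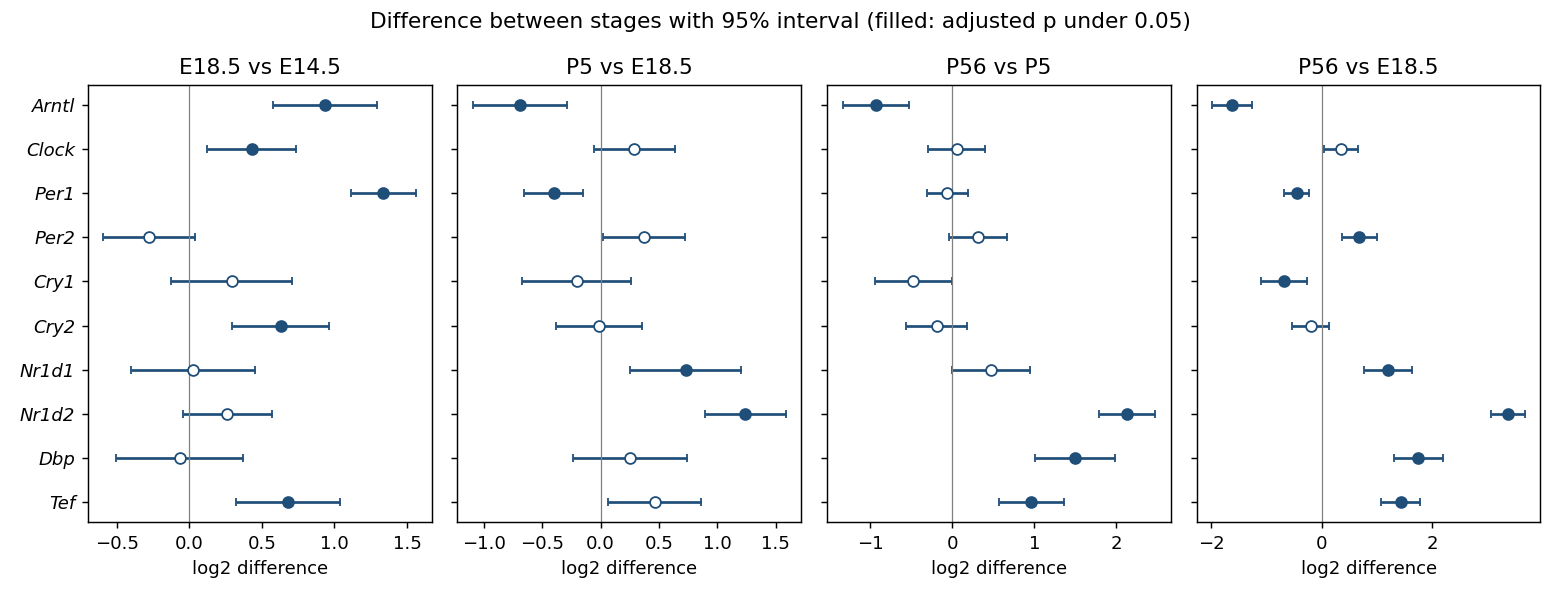
Log2 difference between stages for each clock gene, with its 95% interval from limma, in 4 comparisons whose horizontal axes differ in scale. Filled points passed an adjusted p of 0.05 over all 16704 genes; in the rightmost panel Nr1d2 lies farthest right at 3.37 and Arntl farthest left at -1.62.

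Counted by comparison, E18.5 against E14.5 had 5 of the 10 genes higher (Arntl, Clock, Per1, Cry2, Tef) and none lower, and 5 not called, against 47.3% of all genes tested that were called in that comparison (24.6% higher and 22.8% lower). The median difference was 0.36 over the clock genes and -0.01 over all genes. P5 against E18.5 had 2 higher (Nr1d1, Nr1d2) and 2 lower (Arntl, Per1), against 13.7% of all genes called (7.32% higher and 6.4% lower), with medians of 0.27 and 0.00. P56 against P5 had 3 higher (Dbp, Tef, Nr1d2) and 1 lower (Arntl), against 45.6% (20.9% and 24.7%), with medians of 0.18 and -0.02. P56 against E18.5 had 5 higher (Per2 among them by its brighter probe) and 3 lower (Arntl, Per1, Cry1), against 64.8% (31.2% and 33.6%), with medians of 0.51 and -0.01. P56 against E14.5 had 8 higher and 1 lower (Arntl), against 70.9% (36.1% and 34.8%), with medians of 0.82 and 0.04. For E18.5 against E14.5 and P56 against P5 the share of clock genes called, 5 and 4 of 10, was near that of all genes. Without P56 replicate 2, the array with the fewest spots above background, Per2 passed the threshold for P56 against P5 (0.45, adjusted p = 0.033) and Cry2 lost its call for P56 against E14.5 (0.31, adjusted p = 0.099), and no other call on P56 changed. The stages are fitted together and share arrays, so these counts are not independent of each other.

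The postnatal directions depend on how arrays were scaled. With a shift of every array to a median of 0 instead of the loess step, the median difference of all genes moved from -0.02 to -0.47 for P56 against P5, from -0.01 to -0.42 against E18.5 and from 0.04 to -0.33 against E14.5, and the share of higher genes among all those called fell from 45.7% to 6.84%, from 48.1% to 14.9% and from 51.0% to 22.9%. Even so, Nr1d2 stayed higher at P56 than at E18.5 by 2.44, Dbp by 1.48 and Tef by 0.55, each past the threshold, and Arntl lower by 2.02. Nr1d1 gave 0.36 (adjusted p = 0.12) against E18.5 under this centring. For P56 against P5 Tef gave 0.07 (adjusted p = 0.83), Clock turned to -0.76 (adjusted p = 0.0031), and Per1 and Cry2, not called above, gave -0.92 (adjusted p = 1.2e-04) and -0.82 (adjusted p = 0.0015). For P56 against E18.5 Clock gave -0.48 (adjusted p = 0.018) and Cry2 -0.87 (adjusted p = 3.2e-04), both called lower, and Per2 gave 0.13 (adjusted p = 0.46). The clock genes called were then 2 higher and 4 lower for P56 against P5, 3 higher and 5 lower against E18.5, and 3 higher and 1 lower against E14.5. Against E14.5, Per1 gave 0.05, Clock 0.03, Nr1d1 0.44, Per2 -0.056 and Cry2 -0.17, with adjusted p from 0.059 to 0.89.

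The P5 calls rest on 2 arrays that lay far apart for several clock genes. From replicate 2 to replicate 3 the values stood 0.79 lower for Arntl and 0.75 lower for Cry1, 0.85 higher for Nr1d1 and 0.58 higher for Nr1d2, where the median gap over all genes tested was 0.21. For Nr1d1 4.13% of all genes had a larger gap, for Arntl 5.19%, for Cry1 6% and for Nr1d2 11.2%, while for Clock and Per1 94.8% and 70.3% did. Replicate 3 was nearer the P56 mean than replicate 2 for 8 of the 10 genes, all but Clock and Cry2. The same held for 74.1% of all genes tested. Replicate 3 was scanned together with the P56 arrays, and the part of the scan was not tested. Without P5 replicate 2, Arntl was 1.09 lower at P5 than at E18.5 (adjusted p = 4.6e-04), Nr1d1 1.15 higher (adjusted p = 0.0020) and Tef 0.69 higher (adjusted p = 0.034). Without replicate 3 the differences were -0.29 for Arntl (adjusted p = 0.28), -0.34 for Per1 (adjusted p = 0.23) and 0.30 for Nr1d1 (adjusted p = 0.45), and only Nr1d2 was called. Nr1d1 also lost its call without any 1 of the E14.5 or E18.5 arrays or P56 replicate 3 (adjusted p = 0.063 to 0.12), Per1 without any 1 of the E14.5 arrays or E18.5 replicate 2 or 3 (adjusted p = 0.058 to 0.12), and Arntl without any 1 of the E18.5 arrays (adjusted p = 0.062 to 0.093). Against P56, Arntl was 0.54 lower at P56 without replicate 2 (adjusted p = 0.012), and without replicate 3 Cry1 was 0.85 lower (adjusted p = 0.0052) and Nr1d1 0.89 higher (adjusted p = 0.0025).

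**Figure D4:**
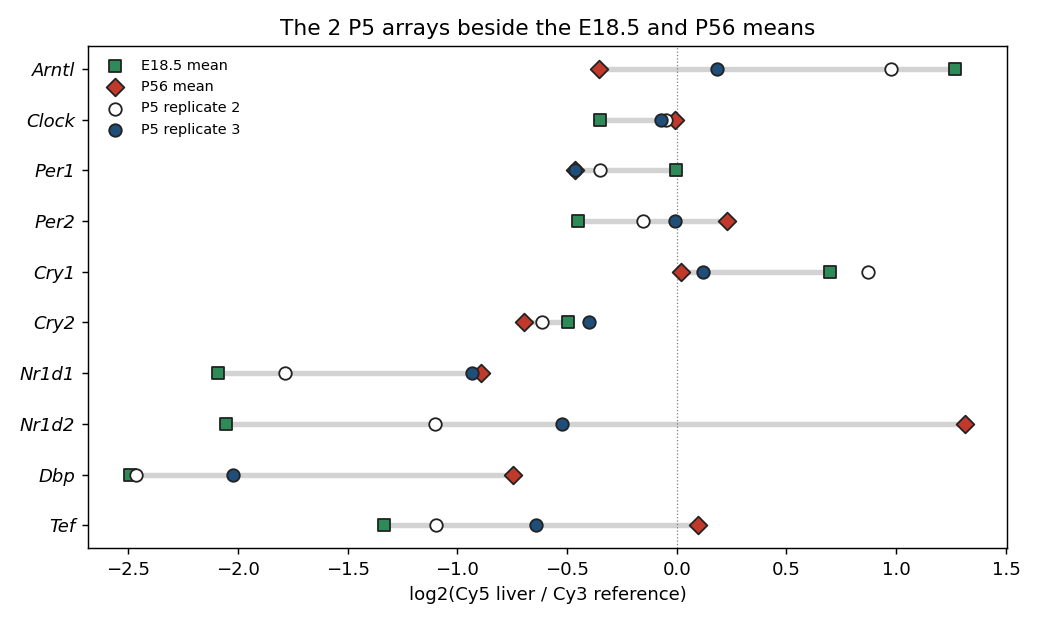
Each clock gene's log2(Cy5 liver/Cy3 reference) on the 2 P5 arrays, beside the means of E18.5 and P56, which the grey bar joins. The filled P5 replicate 3 sits nearer the P56 mean than the open replicate 2 for 8 of the 10 genes; for Nr1d1 it reaches -0.93 against a P56 mean of -0.89.

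By the scan times in the array files, scan 1 held the E14.5 arrays and E18.5 replicate 1, scan 2 the other E18.5 arrays, scan 3 P5 replicate 2, and scan 4 P5 replicate 3 and the P56 arrays. Within scan 1, E18.5 replicate 1 exceeded the E14.5 mean by 1.22 for Per1, 0.92 for Arntl, 0.63 for Clock, 0.59 for Tef and 0.36 for Cry2. Within scan 4, the P56 mean exceeded P5 replicate 3 by 1.84 for Nr1d2, 1.28 for Dbp and 0.74 for Tef, and lay 0.54 below it for Arntl. These within-scan values rest on 1 array on one side. The genes named were called in the fit over all arrays, which holds these same arrays, so their direction here is no separate test. With a fixed block for the scan, Tef and Cry2 were not called for E18.5 against E14.5. No scan held both P5 and E18.5, or P56 and an embryonic stage, so scan and stage cannot be told apart in those comparisons.

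The adult arrays can also be set beside the adult reference of the Cy3 channel. Nr1d2 stood 1.32 ± 0.06 (SD, n = 3) above the reference at P56, and 6.39% of all genes tested lay farther from it. Nr1d1, Dbp and Cry2 stood 0.89 ± 0.28, 0.74 ± 0.08 and 0.70 ± 0.26 below it (SD, n = 3), with 14.3%, 18.9% and 20.8% of genes farther away, where the median distance of all genes was 0.27. Clock, at -0.01 ± 0.09, and Cry1, at 0.02 ± 0.15, were close to the reference. For Cry1 this does not show equal levels, because both channels were near background at P56. Its raw Cy5 signals were 48.4, 36.2 and 40.3, over backgrounds of 34, 34 and 36. Its Cy3 signals were 54.4, 54.9 and 57.4, none well above background. With no dye swap, a dye bias of the clock probes and a difference of the livers cannot be told apart in these ratios to the reference. The ratios also depend on how arrays were scaled. Raw signals of Nr1d2 at P56 were 629, 397 and 563 in Cy5 and 414, 477 and 501 in Cy3. With every array shifted to a median of 0 instead of the loess step, its rise from E18.5 to P56 was 2.44 instead of 3.37.

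Beyond the 10 genes, a list of 12 other genes of the loop had 9 tested members, and Npas2, Arntl2 and Rorb did not pass the filter. From E14.5 to E18.5, 5 of the 9 were higher and none lower, where 47.3% of all genes were called and 24.6% were higher, led by the activating receptor Rora (2.16 ± 0.13), the repressor Bhlhe40 (2.15 ± 0.14) and Nfil3 (1.63 ± 0.14), which competes with the PAR bZIP factors for D-boxes, with adjusted p from 1.1e-07 to 1.8e-06. The median over the 9 was 0.53, against -0.01 over all genes. From E18.5 to P56, 4 were higher and 2 lower, with a median of 0.14 and 64.8% of all genes called. Ciart, a repressor of the activating pair, rose by 2.39 ± 0.24, while Timeless, which also serves DNA replication, fell by 2.24 ± 0.23. Ciart lay at -1.55, -1.39 and -1.46 at E18.5, at -1.72 and -0.58 at P5, and at 0.57, 1.11 and 1.08 at P56, so that 1 P5 array lay below those of E18.5 and the other between E18.5 and P56. Between P5 and E18.5, Hlf, the third PAR bZIP factor, was higher by 0.64 ± 0.13 and Bhlhe40 lower by 0.96 ± 0.16. These were the 2 of the 9 called there, where 13.7% of all genes were. From P5 to P56, 3 were higher and 2 lower, and from E14.5 to P56 7 were higher and 1 lower, against 45.6% and 70.9% of all genes called.

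Of 15 regulators of clock proteins, 14 were tested, all but Fbxl21. From E18.5 to P56, 9 were lower and 2 higher, with a median of -0.51 against -0.01 over all genes, of which 64.8% were called and 33.6% were lower. The 2 that rose were Prkaa2, a catalytic subunit of AMP kinase, by 1.69 ± 0.14, and Usp2, a ubiquitin protease, by 1.56 ± 0.19, while the corepressor Ncor1 fell by 1.12 ± 0.13. Csnk1e, a kinase that marks period proteins, was 1.22 ± 0.12 lower at P56 than at E14.5. In that comparison 3 were higher and 9 lower, against 70.9% of all genes called, and from E14.5 to E18.5 2 were higher and 4 lower, against 47.3%. The coactivator Ppargc1a exceeded its E14.5 level at E18.5 by 1.45 ± 0.19, was higher again at P5 by 0.97 ± 0.21, and lay 1.71 ± 0.21 lower at P56 than at P5. Its rise to P5 was 0.61 (adjusted p = 0.0502) without P5 replicate 2. P5 had 2 higher and none lower against E18.5 (13.7% of all genes called), and P56 2 higher and 6 lower against P5 (45.6%).

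All 13 genes of a list of clock-controlled liver outputs were tested. At E18.5, 10 were higher than at E14.5 and 1 lower, against 47.3% of all genes called and 24.6% higher, with a median of 1.17 and the largest rises in the phosphatidate phosphatase gene Lpin1 (3.78 ± 0.23), in Cyp7a1, the rate-limiting enzyme of bile acid synthesis (2.86 ± 0.19), and in Por, the reductase of the microsomal P450 enzymes (2.39 ± 0.12). At P5, 2 were higher than at E18.5 and 2 lower, against 13.7% of all genes called. The lower ones were Lpin1, down by 2.24 ± 0.26, and Cyp7a1, down by 0.83 ± 0.21. Cyp7a1 stood at -1.73 and -0.83 on the P5 arrays, and its difference was -0.38 (adjusted p = 0.11) without P5 replicate 2, -1.28 (adjusted p = 8.5e-04) without P5 replicate 3, and not called without E18.5 replicate 1 or 3 (adjusted p = 0.069 and 0.073). At P56, 7 were higher than at P5 and none lower, led by Cyp7a1 (3.63 ± 0.21), and 8 were higher than at E18.5 and none lower, with a median of 0.81, where 45.6% and 64.8% of all genes were called and 20.9% and 31.2% were higher. Cyp2a4 and Cyp2a5 rose by 3.09 ± 0.44 and 2.81 ± 0.29 from E18.5 to P56, but the genes are nearly identical in sequence and their probes may not tell them apart. Against E14.5, 11 were higher at P56 and 2 lower, and 70.9% of all genes were called.

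A list of 12 immediate early and glucocorticoid-responsive genes, whose signals can reset liver clocks, was tested in full. At E18.5, 9 were higher than at E14.5 and none lower, against 47.3% of all genes called and 24.6% higher, with a median of 0.99. Pdk4 (2.52 ± 0.15), Egr1 (2.17 ± 0.19) and Junb (1.74 ± 0.16) led them, and a link to the clock genes was not tested. At P5, Tat (2.37 ± 0.24) and Sgk1 (1.38 ± 0.16) were among 3 that were higher than at E18.5, and Fkbp5 was the 1 lower (-0.60 ± 0.14), a call that was lost without P5 replicate 3 (-0.50, adjusted p = 0.14) or without E18.5 replicate 2 or 3 (adjusted p = 0.061 and 0.055), where 13.7% of all genes were called. At P56, 6 were lower than at P5, led by Egr1 (-2.25 ± 0.21) and Pdk4 (-2.18 ± 0.17), and 2 were higher, among them Tsc22d3 (1.47 ± 0.17), against 45.6% of all genes called. P56 had 3 higher and 5 lower against E18.5, and 6 higher and none lower against E14.5, where 64.8% and 70.9% of all genes were called.

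Markers of cell types moved in the same comparisons, and their part in the clock results was not tested. All 9 erythroid markers were lower at P56 than at E18.5, with list means from 3.04 to 3.27 at E18.5, 2.49 to 2.84 at P5 and -0.20 to 0.04 at P56. All 7 cell cycle genes were lower too, with means from 3.02 to 3.09 at E18.5 and -0.91 to -0.45 at P56, and at P5 3.17 on replicate 2 and 2.19 on replicate 3. All 4 hepatoblast markers were lower at P56, with means falling from between 5.33 and 5.65 to between 0.12 and 0.53. From E14.5 to E18.5 all 7 hepatocyte markers tested were higher, with means from -4.03 to -3.84 at E14.5 and from -1.14 to -0.95 at E18.5, and so were all 8 macrophage markers, from between -3.16 and -2.77 to between -1.66 and -1.33. At P56 against E18.5, 4 hepatocyte markers were higher and 2 lower, and 5 macrophage markers were lower and none higher, where 64.8% of all genes were called. P56 against P5 had 2 hepatocyte markers higher and 3 lower, against 45.6% of all genes called. Hepatocyte list means at P56 ran from -1.07 to -0.08. Of the hepatocyte list Alb had no probe of that name. Endothelial (5 tested), biliary (5), stellate and fibroblast (7) and other haematopoietic (6) lists had 3, 3, 2 and 5 members that were up at E18.5 against E14.5 and 0, 0, 2 and 0 lower, and at P56 against E18.5 0, 0, 1 and 0 higher and 4, 5, 4 and 6 lower, where 47.3% and 64.8% of all genes were called. The labels name liver cells, and the erythroid list mean stood above the adult reference on every array of E14.5, E18.5 and P5.

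The genes nearest in pattern were found by the root mean square difference of their log2 ratios over the 11 arrays, each gene centred on its own mean. Nearest to Nr1d2 were 4930581F22Rik (0.19), AK041861 (0.23) and the carboxylesterase gene Ces2 (0.24), all at a greater distance than the nearest gene of any other clock gene. Nearest to Tef was Prrg2 (0.11), to Dbp AK016729 (0.15) and to Nr1d1 the transcript ENSMUST00000015595 (0.10). Arntl was nearest to Map3k6 (0.12), Clock to 2310076G13Rik (0.13), Per1 to Ly6e (0.098) and Per2 to ORF61 (0.10). Cry1 was nearest to Ripk5 (0.12) and Cry2 to Ppapdc1 (0.087). Over 11 arrays of 4 stages a like pattern is a description only.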

How the data were processed

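Liver RNA (Cy5) and an adult liver reference (Cy3) were read on 11 Agilent 4x44k arrays. Spot intensity values of both dyes, which the authors deposited as Feature Extraction 9.5.1.1 wrote them, were the starting point, and they had not been normalized. The authors' deposited log2 values per gene (lowess-normalized) served as an alternative only. Local background was removed by normexp (offset 50), and the dyes were balanced by loess inside each array, without control or outlier spots. Probes had to be well above background in Cy5 on each array of some stage and could miss 1 array per stage, which left 15 of the 21 clock probes, and the brightest probe stood for its gene. Stage means were fitted to all 11 arrays with limma 3.58.1 (lmFit, eBayes; R 4.3.3), p-values were adjusted over 16704 genes by Benjamini-Hochberg, and the threshold was 0.05. The fit was tested on simulated data. All 10 clock genes are named, with up to 3 called genes of largest change per list and comparison, and the nearest gene in pattern (the nearest 3 for the gene of widest range). Clock genes and lists were chosen with earlier results of these data known. RefSeq on GRCm38.p6 held the accessions of 18 of the 21 probes. Array coordinates are on mm7, and exons were not looked up on that build. Same-numbered replicates did not pair (15 pairs of arrays, r from -0.31 to 0.19), so the fit had no block. Python 3.11.15 and matplotlib 3.10.9 drew the figures. Tumor and human samples were not analysed here, and 1 gene that the naming rule picked is not reported here.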

Additional observations from a re-analysis of the deposited data

How the results depend on the processing

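Over the settings other than leaving out an array, the number of clock genes called ran from 3 to 6 for E18.5 against E14.5, 0 to 4 for P5 against E18.5, 0 to 6 for P56 against P5, 6 to 10 for P56 against E18.5 and 4 to 10 for P56 against E14.5. For P5 against E18.5 it was 4 as reported. It was 2 with the scanner's processed signals, with median centring or with the scan as a random block, and 1 with the authors' gene table, with only the arrays compared or with the replicate block. It ranged from 1 to 5 when each array was left out in turn: 1 without P5 replicate 3, E18.5 replicate 2 or E18.5 replicate 3, 2 without any E14.5 array or E18.5 replicate 1, and 5 without P5 replicate 2. The methods' t-test with Benjamini-Hochberg adjustment called 0 there and 0 for P56 against P5, where limma called 4 and 4. At an unadjusted p under 0.05 the t-test counted 3 and 3 and limma 6 and 5. For E18.5 against E14.5 the count of 5 became 3 among the 7 clock genes well above background on all arrays and 3 with a fixed block for the scan, which cannot be fitted for P5 against E18.5 or P56 against the embryonic stages. For P56 against E14.5 the count of 9 became 4 with median centring. The replicate block moved no other count of clock genes by over 1.5 times (5, 4, 9 and 9 in the other comparisons).

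Directions turned in few cases. For E18.5 against E14.5 Per2 gave 0.29 as the mean over its probes, 0.78 in the authors' gene table and 0.86 by its dimmer probe, which also gave -0.40 for P56 against E18.5. Median centring gave Clock -0.76 for P56 against P5 and -0.48 for P56 against E18.5, and for P56 against E14.5 gave Per2 -0.056 and Cry2 -0.17. Dimmer probes, added after the data were seen, gave -0.015 and -0.026 for Clock (probes 2 and 4 by brightness), -0.036 for Cry2, and -0.055 and -0.059 for Tef (probes 2 and 3), all for E18.5 against E14.5. A change of sign where neither value passed the threshold was not counted as a turn. Of the single differences under the other planned settings, 668 kept direction and side of the threshold, 52 lost the call, 29 gained it and 6 turned, and with 1 array left out these numbers were 511, 29, 10 and 0. The lists of other loop genes, regulators, outputs and immediate early genes had 0 to 2, 0 to 3, 0 to 4 and 0 to 5 calls for P5 against E18.5 over the settings other than leaving out an array, and 2 to 7, 8 to 14, 6 to 9 and 5 to 10 for P56 against E18.5. Of the stage means of clock genes under the other planned settings, 246 were counted as the same and 102 as moved. The Cy5 channel alone gives no ratio to the reference and so no stage means. Dim spots limit Cry1, Nr1d1, Arntl at P56 and the second probes of Cry2 and Tef, where the offset of 50 shrinks differences. The causes of these changes were not tested.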
